A study of Mus musculus with 30 samples.

Results

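Of the 46603 genes in the count table of a mouse tumour macrophage study, 42 are genes of the cell cycle and of DNA replication, and their levels are described here across all 6 groups. They were taken by gene name from a list of 42 symbols, and every symbol was found once. Positions below are those of the count table, on GRCm38. By role they were split into 18 replication genes, 20 mitosis genes and 4 others, namely Ccnd1, Cdkn1a, Hmgb2 and Stmn1. The replication genes are Pcna, Mcm2, Mcm3, Mcm4, Mcm5, Mcm6, Mcm7, Ccne1, Ccne2, Cdc6, Cdt1, Tyms, Rrm1, Rrm2, Tk1, Gins2, E2f1 and Uhrf1. The mitosis genes are Mki67, Top2a, Cdk1, Ccna2, Ccnb1, Ccnb2, Cdc20, Cenpa, Cenpe, Cenpf, Aurka, Aurkb, Bub1, Bub1b, Birc5, Plk1, Kif11, Kif20a, Tpx2 and Ube2c.

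RNA was sequenced in bulk from tumour-associated macrophages of wild-type C57BL/6 mice that carried 3LL-R tumours under the skin. 3LL-R is a transplanted line of Lewis lung carcinoma, so each tumour grew from cultured carcinoma cells. The macrophages were sorted into an MHC-IIlo and an MHC-IIhi subset by their surface level of MHC class II, the molecule that presents antigen to CD4 T cells. Each of the 6 groups had 5 libraries: lactate MHC-IIlo and lactate MHC-IIhi (250000 sorted cells, 24 h in culture in medium with 20 mM sodium L-lactate), no-lactate MHC-IIlo and no-lactate MHC-IIhi (250000 cells, 24 h in culture without it), and fresh MHC-IIlo and fresh MHC-IIhi (30000 cells sorted directly into lysis buffer). The labels call the libraries biological replicates, but do not say which animals or pools they came from, so p-values measure the spread between these libraries.

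A dividing cell first copies its DNA and then parts the copies. At the start of S phase, cyclin E with its kinase and the E2F transcription factors turn on the loading factors Cdc6 and Cdt1, the MCM helicase, the sliding clamp PCNA and the enzymes that make deoxynucleotides. Later, cyclins A and B with Cdk1, the Aurora and Polo kinases, centromere proteins and kinesins build the spindle, and the anaphase-promoting complex ends mitosis. Cdkn1a encodes p21, an inhibitor of cyclin-dependent kinases that p53 induces, and macrophages in tissues, tumours included, can divide in place.

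Genes of this kind are often controlled through a few promoter words: E2F sites for S-phase genes, and the cell cycle homology region (CHR) together with CCAAT boxes for mitosis genes. Promoters that carry these words in these members are shown here because the results below are given by role. Windows of 300 bases, 250 before to 50 after the start of the gene, came from RefSeq on GRCm38.p6. They were found for 33 of the 42 members and for 27025 genes in all. The E2F words searched were TTGGCGC and its variants with the core TTCCCGC, with TTGCCGC or with TTCGCGC. The CHR words were TTTGAA or, in its place, TTTAAA, and the CCAAT box was those letters. Each was searched on both strands, so that ATTGG is a CCAAT box on the other strand. In the sequences, written 5′ to 3′ in the direction of transcription, capitals mark these words. Mcm6, a subunit of the MCM helicase, is at chr1:128359656-128359955 on the minus strand. Cdc20, which activates the anaphase-promoting complex, is at chr4:118437294-118437593 on the minus strand. Ccnb1, cyclin B1, is at chr13:100786437-100786736 on the minus strand. In Ccnb1 an E2F word and a CCAAT box share bases, and read as 1 run of capitals.
Mcm6: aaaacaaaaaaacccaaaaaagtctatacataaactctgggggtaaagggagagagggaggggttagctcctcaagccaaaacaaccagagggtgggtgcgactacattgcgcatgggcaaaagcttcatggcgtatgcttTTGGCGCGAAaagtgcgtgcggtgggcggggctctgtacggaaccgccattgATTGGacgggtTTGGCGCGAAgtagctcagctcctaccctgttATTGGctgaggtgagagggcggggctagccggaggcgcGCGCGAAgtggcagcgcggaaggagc
Cdc20: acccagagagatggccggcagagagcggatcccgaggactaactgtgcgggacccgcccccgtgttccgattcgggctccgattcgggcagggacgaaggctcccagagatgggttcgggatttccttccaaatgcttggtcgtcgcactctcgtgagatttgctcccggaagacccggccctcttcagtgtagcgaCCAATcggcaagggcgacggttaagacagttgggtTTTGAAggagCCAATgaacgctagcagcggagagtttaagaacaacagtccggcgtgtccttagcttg
Ccnb1: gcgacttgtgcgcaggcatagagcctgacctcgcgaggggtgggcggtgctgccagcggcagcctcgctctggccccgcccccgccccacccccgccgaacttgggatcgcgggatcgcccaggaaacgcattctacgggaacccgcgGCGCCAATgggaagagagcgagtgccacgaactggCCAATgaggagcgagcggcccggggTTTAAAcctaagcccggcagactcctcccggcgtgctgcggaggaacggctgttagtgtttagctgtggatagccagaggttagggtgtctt

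The share of windows with each word differed between the roles. E2F words stood in the windows of 9 of 15 replication genes (60.0%) and 3 of 16 mitosis genes (18.8%), against 10.9% of all genes with a window. CHR words stood in 6 of 15 replication genes (40.0%) and 15 of 16 mitosis genes (93.8%), against 30.6% of all genes. The CHR word TTTGAA alone was in 1 of 15 replication genes (6.67%) and 12 of 16 mitosis genes (75.0%), against 20.2% of all genes. CCAAT boxes were in 9 of 15 (60.0%) and 15 of 16 (93.8%), against 41.1%. A CHR word and a CCAAT box stood together in 4 of 15 replication genes (26.7%) and 14 of 16 mitosis genes (87.5%), against 12.2% of all genes. A match is a match of letters, and no binding was measured.

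Levels are CPM, counts scaled to a library's total, and total counts ran from 16913250 to 31481548 per library. Values of a group are given in the order of the library numbers in the headers, which run 1 to 5 for fresh cells of each subset, 3 to 7 for no-lactate MHC-IIhi, and 1, 3, 4, 5 and 6 for the other cultured groups. The libraries carried macrophage transcripts. For 9 macrophage markers (among them Csf1r, Lyz2 and Adgre1) the summed level was 6173 to 16321 CPM in MHC-IIlo and 8559 to 17905 CPM in MHC-IIhi cells with lactate. It was 11805 to 14716 CPM in MHC-IIlo and 7472 to 13956 CPM in MHC-IIhi cells without lactate, and 31401 to 33062 CPM in MHC-IIlo and 24180.0 to 26715 CPM in MHC-IIhi fresh cells. MHC class II transcripts followed the sort, with summed levels in MHC-IIlo and MHC-IIhi of 37.2 to 99.5 and 3982 to 5750.0 CPM with lactate, of 78.2 to 345 and 4117 to 7009.6 CPM without it, and of 444 to 1118 and 21351 to 26671 CPM when fresh. Of 7 epithelial or carcinoma markers, Cldn4 was at 0 in all 30 libraries and Krt18 in 27, whereas Krt8 was measured in all of them.

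Compared per transcript length, as RPKM (reads scaled to library total and to length in kilobases) averaged over the 30 libraries, Cdkn1a had the highest level of the 42 genes, at 219. Among replication genes Pcna, the clamp that holds DNA polymerase, led with 48.5, followed by Mcm6 at 27.4, Cdt1 at 27.3 and Mcm3 at 24.5. Top2a, the topoisomerase that untangles sister chromatids, was the highest of the mitosis genes at 18.5, and Ube2c, a ubiquitin-conjugating enzyme of the anaphase-promoting complex, followed at 15.3. Gins2, a helicase subunit, at 1.65 and Cenpf, a kinetochore protein, at 1.08 had the lowest. All 42 genes passed the count filter in every fit. The summed level of the 18 replication genes in the 5 libraries was 699.8, 878, 935, 1594 and 981 CPM in lactate MHC-IIlo, 616, 1068, 825, 1191 and 1014 in lactate MHC-IIhi, 890.4, 801, 1137, 1043 and 822 in no-lactate MHC-IIlo, 937, 952, 1456, 993 and 1304 in no-lactate MHC-IIhi, 615, 889, 1028, 559 and 667 in fresh MHC-IIlo and 679.8, 777, 998, 595 and 596 in fresh MHC-IIhi. That of the 20 mitosis genes was 507, 650.3, 695, 1451 and 858 CPM in lactate MHC-IIlo, 397, 902, 554, 1062 and 754 in lactate MHC-IIhi, 638, 608, 1129, 893 and 667 in no-lactate MHC-IIlo, 619, 695, 1283, 764 and 917 in no-lactate MHC-IIhi, 373, 650.3, 899, 324 and 455 in fresh MHC-IIlo and 425, 561, 754, 347 and 402 in fresh MHC-IIhi. For both sums the ranges of all 6 groups overlapped.

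**Figure D1:**
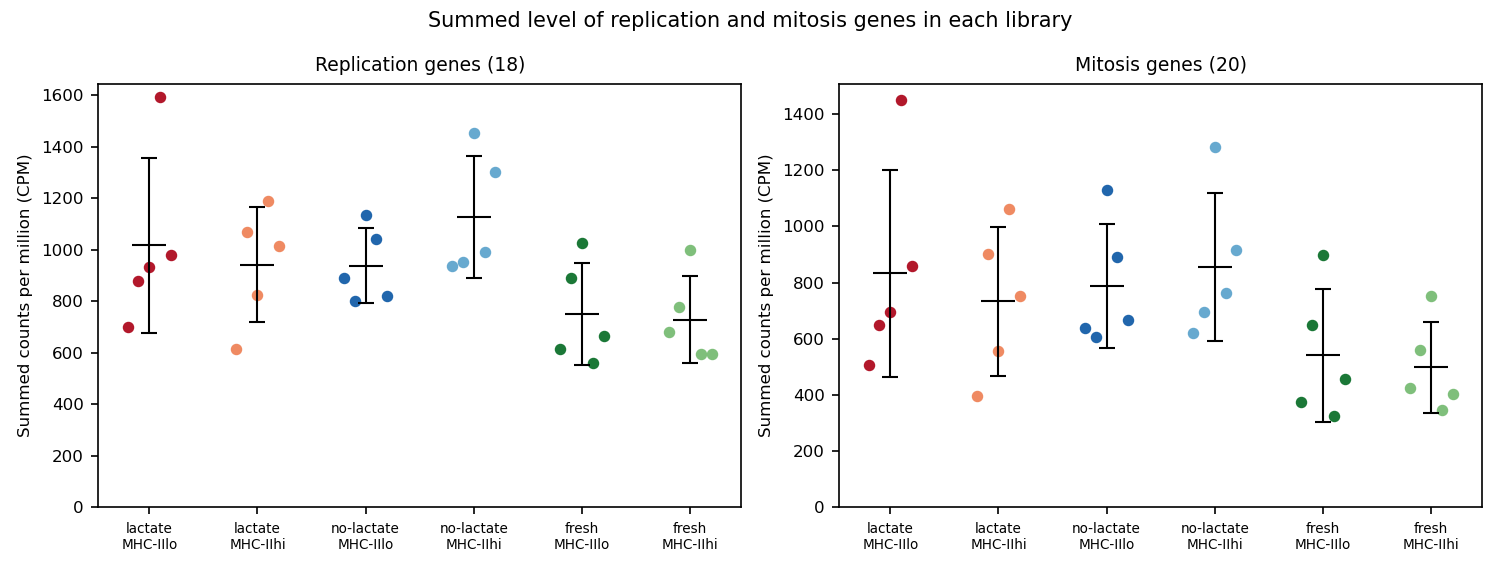
Summed CPM of the 18 replication and the 20 mitosis genes in each of the 30 libraries (points), with mean and SD (bars) per group. The ranges of the 6 groups overlap for both sums. In CPM, which carry no TMM factor, library 5 of lactate MHC-IIlo is the highest of all, at 1594 and 1451.

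Within a group the highest CPM of most members fell in the same library. In lactate MHC-IIlo, library 5 was the highest for 41 of the 42 genes, and in lactate MHC-IIhi library 5 was the highest for 33. The like counts were 35 for library 4 of no-lactate MHC-IIlo, 34 for library 5 of no-lactate MHC-IIhi, 36 for library 3 of fresh MHC-IIlo and 40 for library 3 of fresh MHC-IIhi. The share of all genes highest in these libraries was not computed. Each of them also had the largest TMM factor of its group, a scaling that the tests use and CPM do not. In the order named, the factors were 1.278, 1.085, 1.04, 1.075, 1.1 and 1.081. How far this scaling accounts for the shared library was not tested. The median coefficient of variation among 5 libraries was larger for mitosis than for replication genes in every group: 43.1% and 38.1% in lactate MHC-IIlo, 38.6% and 28.9% in lactate MHC-IIhi, 25.2% and 19.3% in no-lactate MHC-IIlo, 32.7% and 23.2% in no-lactate MHC-IIhi, 42.3% and 27.3% in fresh MHC-IIlo, and 36.8% and 24.1% in fresh MHC-IIhi. E2f1, the transcription factor of S-phase entry, was among the steadiest, at 5.02% to 12.4%.

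Of the marker lists of other cells, those of fibroblasts and of epithelial or carcinoma cells mostly followed these libraries, and the others did not. The library with the highest summed mitosis level in its group also had the highest summed level of 9 fibroblast markers in 6 of 6 groups and of the 7 epithelial or carcinoma markers in 5 of 6, but of the 9 macrophage markers in 0 of 6. For the other lists this held in 0 of 6 groups for neutrophil markers and in 1 of 6 each for T or NK cell, B cell, monocyte and endothelial markers. It held in 2 of 6 for dendritic cell markers. Krt8, a keratin of epithelial cells, and Pdgfra, a receptor of fibroblasts, were highest in those same libraries in 6 of 6 groups, and Csf1r, the receptor of the macrophage growth factor, in 0 of 6. Other genes of the fibroblast and epithelial lists did so in fewer groups, with 4 of 6 for Col1a1, 3 of 6 for Dcn, 2 of 6 for Epcam and 1 of 6 for both Cdh1 and Krt18. Krt8 was at 95.1 CPM in lactate MHC-IIlo 5, 59.2 CPM in lactate MHC-IIhi 5, 61.1 CPM in no-lactate MHC-IIlo 4, 80.6 CPM in no-lactate MHC-IIhi 5, and 183 and 182 CPM in fresh MHC-IIlo 3 and fresh MHC-IIhi 3. Fibroblast marker sums in MHC-IIlo and MHC-IIhi were 40.3 to 92.6 and 29.9 to 109 CPM with lactate, 39.4 to 78.4 and 39.2 to 123 CPM without it, and 37.1 to 121 and 21.9 to 80.9 CPM when fresh. Epithelial or carcinoma marker sums, mostly Krt8 and Cdh1, were 35.8 to 96.3 and 31.3 to 71.2 CPM with lactate, 39.7 to 62.3 and 36.7 to 90.6 CPM without it, and 132 to 304 and 486 to 619.7 CPM when fresh. The part of these cells in the levels of the 42 genes was not tested, and leaving each library out is given with the results it touches. The marker levels are CPM too, with no TMM factor, and the comparison of libraries was not repeated with it.

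Most genes of both roles were higher in cultured than in fresh MHC-IIhi cells, as were most mitosis genes and 9 of 18 replication genes in MHC-IIlo. In MHC-IIhi cells, 14 of 18 replication genes and 16 of 20 mitosis genes were higher in no-lactate cultured than in fresh libraries, and 1 replication gene, E2f1, was lower. In MHC-IIlo cells, 9 replication and 12 mitosis genes were higher and 3 replication genes (E2f1, Gins2 and Tyms) were lower. To pass, here and in every comparison, a gene needed an adjusted p under 0.05 in edgeR's quasi-likelihood test, adjusted over all genes tested. Much of the transcriptome differed: 62% of all genes passed in MHC-IIhi (31.6% as higher and 30.4% as lower) and 57.5% in MHC-IIlo (27.6% and 29.9%). The median log2 fold change was 0.68 for replication genes and 0.76 for mitosis genes in MHC-IIhi and 0.46 and 0.65 in MHC-IIlo, against 0.012 and -0.0073 for all genes tested. Across subsets, 9 replication and 12 mitosis genes passed as higher in both. The share of all genes that passed as higher in both was not computed, so these joint counts have no background. Of all 42 genes, 26 passed in MHC-IIlo and 32 in MHC-IIhi, and with 1 library left out at a time these counts were 21 (without fresh MHC-IIlo 4) to 32 (without fresh MHC-IIlo 3) and 28 to 34. Without no-lactate MHC-IIlo 4, no-lactate MHC-IIhi 5 and lactate MHC-IIlo 5 together, a choice made after their values were seen, they were 22 and 28. The cultured and fresh groups also differ in cell number and route to lysis, which cannot be told apart from culture, and in bulk RNA more cycling cells and more of these transcripts per cell cannot be told apart either. Of the 3 epithelial or carcinoma markers that could be tested, 0 were higher and 2 lower in cultured MHC-IIlo, while 1 was higher (Epcam) and 2 lower in cultured MHC-IIhi. Of 8 fibroblast markers, 1 was higher and 6 lower in cultured MHC-IIlo, while 1 was higher and 0 lower in cultured MHC-IIhi. Krt8 and Cdh1 passed as lower in both, Krt8 with 49.99 ± 9.66 CPM in no-lactate MHC-IIlo and 102 ± 56.8 CPM in fresh MHC-IIlo, and 44 ± 21.7 CPM in no-lactate MHC-IIhi and 97 ± 52.8 CPM in fresh MHC-IIhi (mean ± SD, n = 5, as for all means with SD below). Dcn, decorin, was the fibroblast marker that was higher in both subsets, with 19.6 ± 6.99 CPM in no-lactate and 7.41 ± 4.96 CPM in fresh MHC-IIlo, and 19.1 ± 6.44 CPM in no-lactate and 5.93 ± 3.02 CPM in fresh MHC-IIhi.

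**Figure D2:**
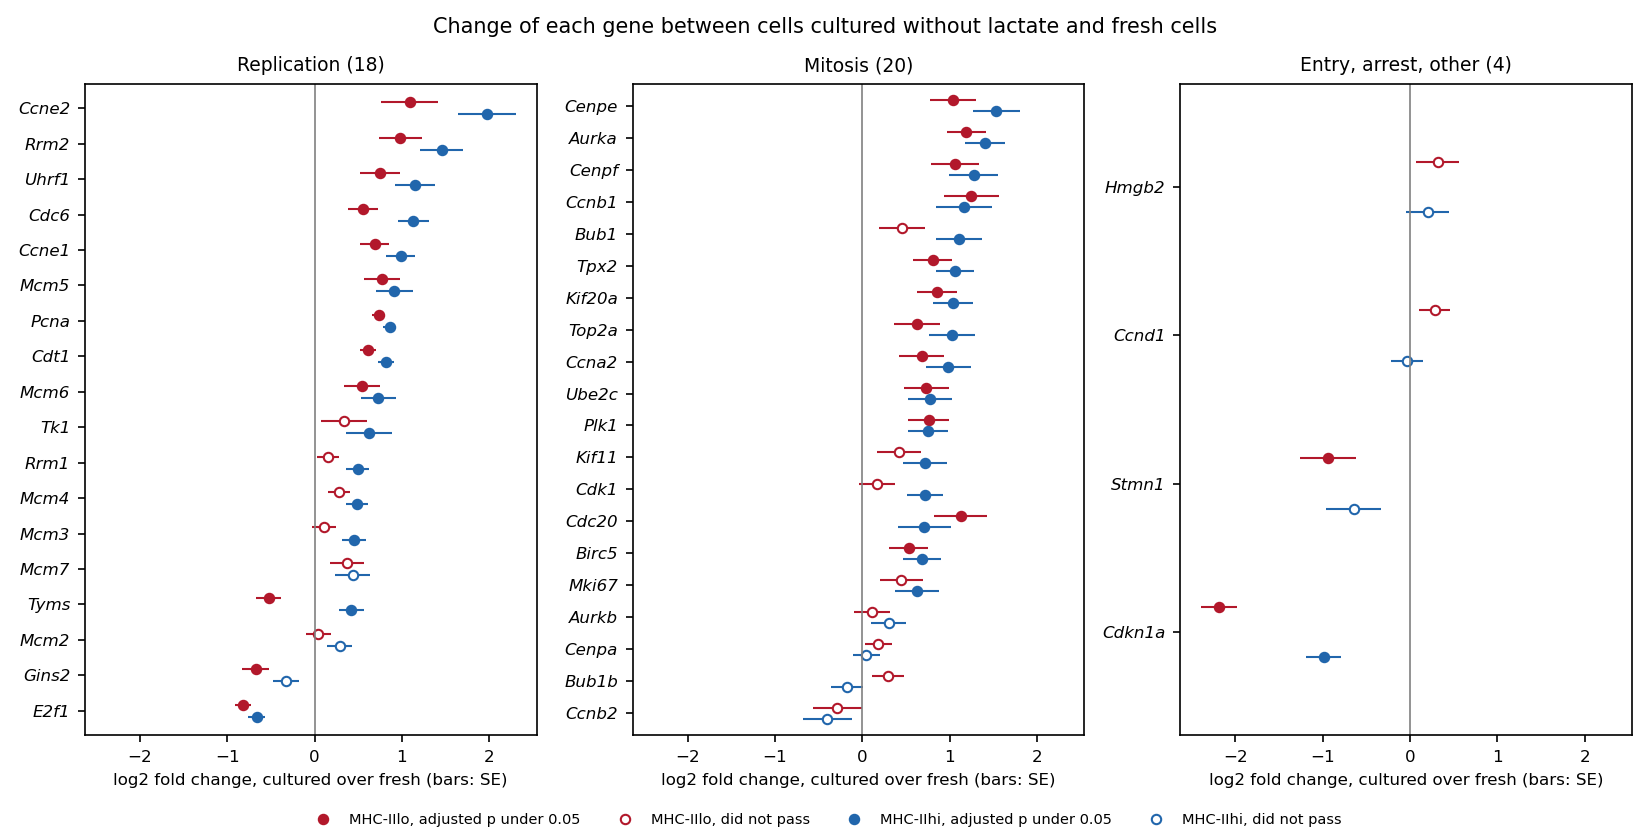
Log2 fold change (x axis, with SE) of each of the 42 genes (y axis) between cells cultured without lactate and fresh cells, in both subsets; filled points passed at an adjusted p under 0.05. Most replication and mitosis genes lie right of 0, whereas E2f1 and Cdkn1a lie left of it in both subsets and Tyms has opposite signs.

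Pcna (ENSMUSG00000027342, chromosome 2, 132249162 to 132253314) had the smallest adjusted p of the replication genes in both subsets. It was at 138, 124, 141, 133 and 127 CPM in no-lactate MHC-IIlo and at 75.4, 81.4, 96.9, 72.8 and 87.8 CPM in fresh MHC-IIlo. In MHC-IIhi it was at 150.1, 136, 141, 132 and 157 CPM in no-lactate libraries and at 76.5, 84.5, 97.3, 78.9 and 68.3 CPM in fresh libraries. Cultured and fresh libraries did not overlap in either subset, and the log2 fold change was 0.74 ± 0.076 (adjusted p = 4.09e-08) in MHC-IIlo and 0.86 ± 0.077 (adjusted p = 3.01e-09) in MHC-IIhi. Cdt1, which loads the helicase onto origins, was likewise apart, with 62.7 ± 4.9 CPM in no-lactate and 42.9 ± 7.08 CPM in fresh MHC-IIlo (log2 fold change 0.61 ± 0.09, adjusted p = 5.14e-06), and 74.2 ± 10.6 CPM in no-lactate and 43.1 ± 7.87 CPM in fresh MHC-IIhi (0.82 ± 0.09, adjusted p = 7.53e-08).

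Mcm5, another subunit of the MCM helicase, overlapped between the groups. In MHC-IIlo it was at 72.5, 55.2, 83.4, 79.2 and 55.9 CPM in no-lactate libraries and 28.5, 57.1, 67.6, 25.1 and 36.3 CPM in fresh libraries. In MHC-IIhi it was at 63.4, 67, 125, 70.3 and 98.8 CPM in no-lactate libraries and 47.8, 47.2, 66, 34.6 and 34.9 CPM in fresh libraries. Fresh library 3 of each subset had its group's highest value and lay inside the cultured range, and the log2 fold change was 0.77 ± 0.21 (adjusted p = 0.00336) in MHC-IIlo and 0.91 ± 0.21 (adjusted p = 0.000673) in MHC-IIhi. The other MCM genes differed less. Mcm6 rose by 0.54 on the log2 scale in MHC-IIlo and 0.73 in MHC-IIhi, Mcm3 and Mcm4 rose by 0.46 and 0.49 in MHC-IIhi, and Mcm2 and Mcm7 had 0.29 (adjusted p = 0.0836) and 0.44 (adjusted p = 0.0611) there and did not pass. The calls of Mcm4 in MHC-IIhi and of Mcm6 in both subsets ended in all 3 FPKM fits. Mcm7 passed in MHC-IIhi with DESeq2, and both Mcm2 and Mcm7 passed there without fresh MHC-IIhi 3 or no-lactate MHC-IIhi 3, and Mcm7 without no-lactate MHC-IIhi 4. Mcm7 also overlaps Cops6 and Ap4m1 by gene coordinates, and as the strand setting of the count is not given some of its reads may be uncertain. The highest of the genes it overlaps averaged 73.2 CPM over all libraries, against 47.1 CPM for Mcm7. How far exons overlap was not measured, here or for the gene pairs below.

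Both genes of cyclin E, which starts S phase, rose in both subsets. Ccne2 (ENSMUSG00000028212, chromosome 4, 11191351 to 11204779) was at 8.71, 10.3, 15.1, 11.2 and 14.3 CPM in no-lactate MHC-IIhi and at 2.9, 2.42, 4.14, 3.22 and 2.68 CPM in fresh MHC-IIhi, with no overlap, and its log2 fold change of 1.97 ± 0.33 (adjusted p = 2.50e-05) was the largest of the 42 genes there. In MHC-IIlo it was at 6.32, 5.43, 12.9, 10.4 and 6.49 CPM in no-lactate libraries and 1.29, 7.51, 6.14, 1.61 and 3.91 CPM in fresh libraries, which overlapped, with a log2 fold change of 1.09 ± 0.32 (adjusted p = 0.00661). Ccne2 overlaps Ints8 on the opposite strand by gene coordinates, and without the strand setting some of its reads may be uncertain. Ccne1, its paralog, rose by 0.69 in MHC-IIlo and 0.98 in MHC-IIhi. Cdc6, the partner of Cdt1 in loading, rose by 1.13 ± 0.17 (adjusted p = 7.73e-06) in MHC-IIhi, with 22.2 ± 4.85 CPM in no-lactate and 10.4 ± 2.84 CPM in fresh libraries, and by 0.56 in MHC-IIlo. Uhrf1, which carries DNA methylation onto new strands, rose by 0.75 in MHC-IIlo and 1.15 in MHC-IIhi.

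The genes of nucleotide supply split. Rrm2, the regulated subunit of ribonucleotide reductase, rose by 0.98 ± 0.25 (adjusted p = 0.00172) in MHC-IIlo and 1.46 ± 0.25 (adjusted p = 2.84e-05) in MHC-IIhi. Its partner Rrm1 rose by 0.49 in MHC-IIhi, a call that ended in all 3 FPKM fits, and had 0.15 in MHC-IIlo (adjusted p = 0.325). Tk1, thymidine kinase, rose by 0.62 in MHC-IIhi (adjusted p = 0.0431), a call that ended without any 1 of fresh MHC-IIhi 1, 2, 4 and 5 and no-lactate MHC-IIhi 5, 6 and 7, and in a fit to all 30 libraries. With a block on the library number the call of Tk1 ended too. Tyms, thymidylate synthase, had opposite signs in the subsets. It was at 11.3, 12.3, 16.1, 17.2 and 11.3 CPM in no-lactate MHC-IIlo and 18.3, 21.9, 24.1, 17 and 20.8 CPM in fresh MHC-IIlo, mostly lower in the cultured libraries. Its MHC-IIhi levels were 19, 16.8, 24.2, 18.4 and 25.3 CPM in no-lactate libraries and 11.6, 18.4, 21.7, 15 and 12.7 CPM in fresh libraries, mostly higher in the cultured ones. The log2 fold change was -0.53 ± 0.14 (adjusted p = 0.00295) in MHC-IIlo and 0.42 ± 0.14 (adjusted p = 0.0128) in MHC-IIhi, and the difference between the 2 was itself past the threshold, at -0.95 ± 0.20 (adjusted p = 0.00253). The call in MHC-IIhi ended in a fit to all 30 libraries.

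E2f1 fell in both subsets. In MHC-IIlo it was at 32.4, 28.1, 28.6, 29.6 and 29.1 CPM in no-lactate and 51.3, 48.5, 56.2, 55.4 and 59.5 CPM in fresh libraries, and in MHC-IIhi at 24.3, 28.6, 29.7, 27.3 and 34 CPM in no-lactate and 43.9, 43.6, 54.3, 46.8 and 44 CPM in fresh libraries. Neither subset had any overlap, and the log2 fold change was -0.82 ± 0.093 (adjusted p = 1.58e-07) in MHC-IIlo and -0.66 ± 0.094 (adjusted p = 2.66e-06) in MHC-IIhi. Gins2 fell by 0.68 ± 0.15 (adjusted p = 0.000602) in MHC-IIlo, with 6.12 ± 0.726 CPM in no-lactate and 10.2 ± 2.08 CPM in fresh libraries, and had -0.33 in MHC-IIhi (adjusted p = 0.0654). Gins2 lies opposite Gse1, whose mean of 55.3 CPM over all libraries is far above the 6.78 CPM of Gins2, so some of its reads may be uncertain. Groups that did not overlap were found for 7 of 18 replication genes in MHC-IIhi and 4 of 18 in MHC-IIlo, against 43.4% and 44.5% of all genes, so these counts are not above the background.

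Among mitosis genes, Ccnb1, Aurka, Cenpe and Cenpf rose by more than 1 log2 unit in both subsets. Ccnb1 (ENSMUSG00000041431, chromosome 13, 100778650 to 100786570) was at 14.8, 12, 26.6, 23.9 and 14.2 CPM in no-lactate MHC-IIlo and 4.71, 7.88, 18.6, 3.36 and 6.04 CPM in fresh MHC-IIlo, where fresh library 3 lay inside the cultured range. Its MHC-IIhi levels were 11.5, 10.5, 23.5, 14.2 and 16.4 CPM in no-lactate libraries and 6.01, 7.69, 9.14, 4.25 and 7.53 CPM in fresh libraries, with no overlap. Its log2 fold change was 1.25 ± 0.32 (adjusted p = 0.00189) in MHC-IIlo and 1.17 ± 0.32 (adjusted p = 0.00318) in MHC-IIhi. Ccnb2, the second B cyclin, had -0.29 in MHC-IIlo and -0.40 in MHC-IIhi and did not pass in either (adjusted p = 0.392 and 0.222), but in MHC-IIhi it passed as lower without no-lactate MHC-IIhi 5 and with voom quality weights. Aurka (ENSMUSG00000027496, chromosome 2, 172356190 to 172370535), the Aurora kinase of the spindle poles, was at 25.2, 24, 36.9, 30.4 and 23.8 CPM in no-lactate MHC-IIlo and 8.24, 13.5, 24.7, 7.55 and 10.9 CPM in fresh MHC-IIlo, with fresh library 3 inside the cultured range. In MHC-IIhi it was at 26.6, 29.1, 39.9, 26.1 and 37 CPM in no-lactate and 8.52, 10.9, 18.4, 11.6 and 11.6 CPM in fresh libraries, which did not overlap. Its log2 fold change was 1.19 ± 0.22 (adjusted p = 0.000107) in MHC-IIlo and 1.40 ± 0.22 (adjusted p = 1.37e-05) in MHC-IIhi, while Aurkb, the kinase of the centromere, had 0.11 and 0.30 and did not pass (adjusted p = 0.655 and 0.199).

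**Figure D3:**
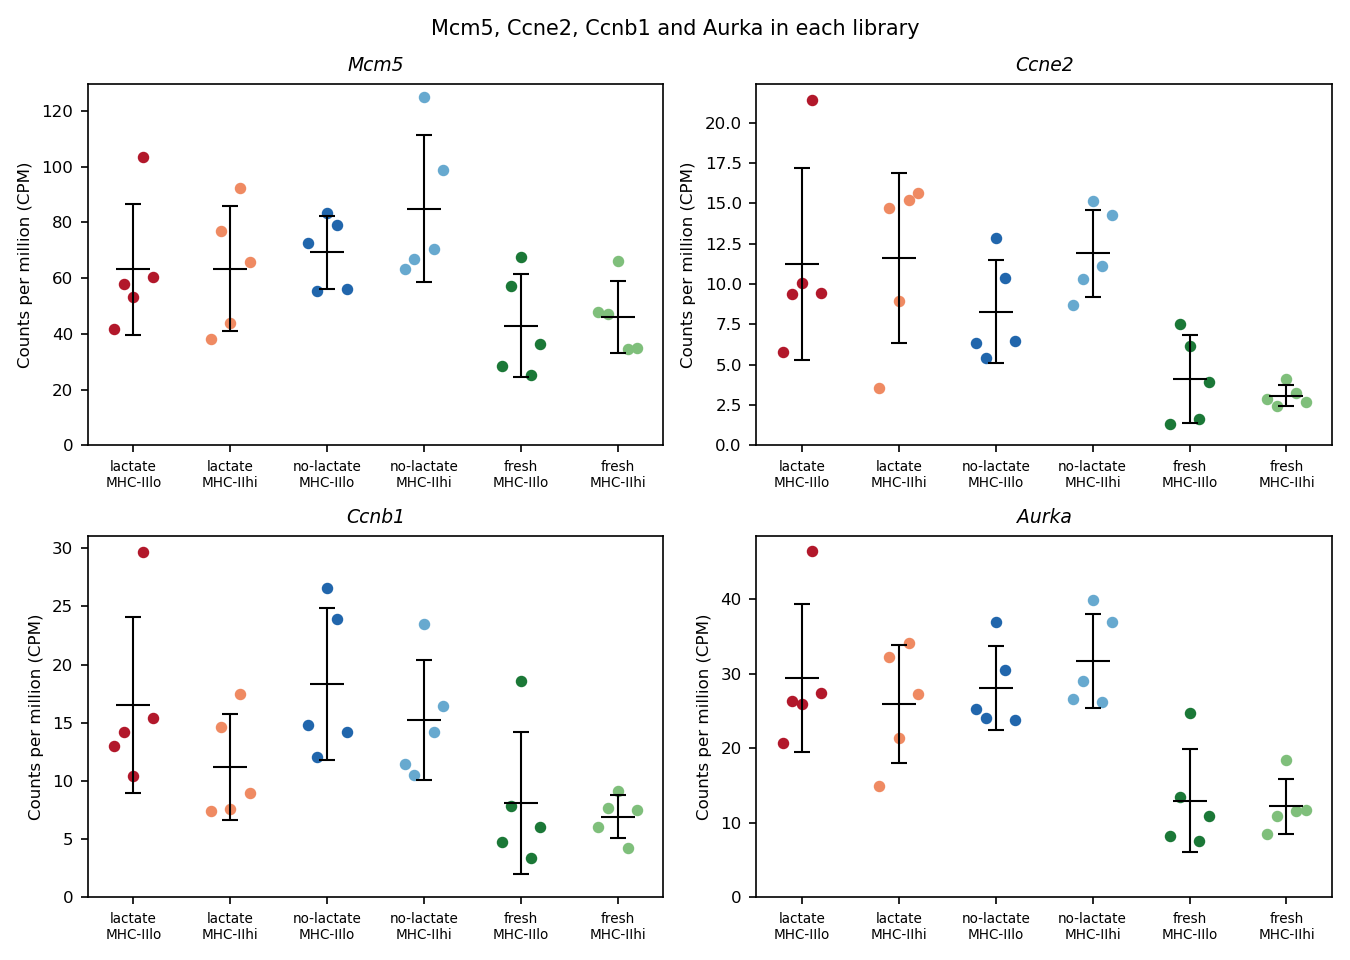
CPM of Mcm5, Ccne2, Ccnb1 and Aurka in each library (points), with mean and SD (bars) for the 6 groups. Cultured libraries lie mostly above fresh ones, and library 5 of lactate MHC-IIlo is its group's highest for each gene.

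Cenpe, a kinesin that links chromosomes to the spindle, had 38.6 ± 13.4 CPM in no-lactate and 19.6 ± 7.94 CPM in fresh MHC-IIlo (log2 fold change 1.04 ± 0.26, adjusted p = 0.00202). In MHC-IIhi it had 40.1 ± 14.8 CPM in no-lactate and 14.3 ± 6.05 CPM in fresh libraries (1.53 ± 0.27, adjusted p = 4.36e-05). Cenpf rose by 1.06 ± 0.28 (adjusted p = 0.00244) and 1.28 ± 0.28 (adjusted p = 0.000476) in the same subsets, whereas Cenpa, the histone of the centromere, had 0.18 and 0.044 and did not pass. Of the spindle checkpoint, Bub1 rose by 1.11 in MHC-IIhi and its relative Bub1b had -0.17 there (adjusted p = 0.428). Tpx2, which activates Aurka on the spindle, rose by 0.81 in MHC-IIlo and 1.06 ± 0.22 (adjusted p = 0.00028) in MHC-IIhi, the Polo kinase gene Plk1 by 0.76 and 0.75, and Kif20a, a kinesin of cytokinesis, by 0.85 and 1.04. Cdc20 rose by 1.13 ± 0.30 (adjusted p = 0.00301) in MHC-IIlo and by 0.71 in MHC-IIhi (adjusted p = 0.0446). The second of these calls ended without any 1 of fresh MHC-IIhi 1, 2, 4 and 5 and no-lactate MHC-IIhi 5, 6 and 7. Cdc20 lies opposite Elovl1, which averaged 127 CPM against 21.7 CPM for Cdc20, so some reads of Cdc20 may be uncertain. With voom quality weights the call of Cdc20 in MHC-IIhi ended too. The same doubt about reads holds for Kif20a, opposite Cdc23, which averaged 30.2 CPM against 29.6 CPM for Kif20a. It also holds for Ccna2, opposite Exosc9, which averaged 32.5 CPM against 41.0 CPM for Ccna2.

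Mki67 and Top2a are common markers of proliferation, and Mki67 in both subsets and Top2a in MHC-IIlo lay nearer the threshold. Mki67, the Ki-67 antigen that coats mitotic chromosomes, was at 54.9, 48.2, 118, 84.9 and 62 CPM in no-lactate MHC-IIlo and 34.9, 66.6, 91.4, 39.4 and 49.7 CPM in fresh MHC-IIlo. Its MHC-IIhi levels were 43.5, 60.2, 109, 74.1 and 75.1 CPM in no-lactate libraries and 47.7, 53.1, 71, 28.8 and 40.4 CPM in fresh libraries. The groups overlapped in both subsets, and the log2 fold change was 0.45 ± 0.25 (adjusted p = 0.13) in MHC-IIlo and 0.63 ± 0.25 (adjusted p = 0.0336) in MHC-IIhi. The call in MHC-IIhi ended without any 1 of fresh MHC-IIhi 1, 4 and 5 and no-lactate MHC-IIhi 5 and 6, and also with voom quality weights, in a fit to all 30 libraries and in all 3 FPKM fits. It ended with a block on the library number too. In MHC-IIlo, Mki67 passed without fresh MHC-IIlo 3 and with voom quality weights. Top2a was at 122, 128, 257, 177 and 144 CPM in no-lactate and 78.6, 149, 200.5, 58.7 and 80.1 CPM in fresh MHC-IIlo, and at 157, 183, 311, 185 and 219 CPM in no-lactate and 99.7, 134, 162, 63.7 and 77.7 CPM in fresh MHC-IIhi. These ranges overlapped too, and the log2 fold change was 0.62 ± 0.26 (adjusted p = 0.0464) in MHC-IIlo and 1.02 ± 0.26 (adjusted p = 0.00197) in MHC-IIhi. The call in MHC-IIlo ended without any 1 of fresh MHC-IIlo 1, 4 and 5 and no-lactate MHC-IIlo 4, 5 and 6, in a fit to all 30 libraries and in all 3 FPKM fits.

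In MHC-IIlo, 6 replication genes (Mcm2, Mcm3, Mcm4, Mcm7, Rrm1 and Tk1) and 8 mitosis genes (Mki67, Cdk1, Ccnb2, Cenpa, Aurkb, Bub1, Bub1b and Kif11) did not pass. In MHC-IIhi these were 3 (Mcm2, Mcm7 and Gins2) and 4 (Ccnb2, Cenpa, Aurkb and Bub1b). Without fresh MHC-IIlo 3, the library of its group with the highest summed levels, Mcm4, Mcm7, Tk1, Mki67, Bub1, Bub1b and Kif11 passed as higher in MHC-IIlo, as they did with voom quality weights. In MHC-IIhi, Gins2 passed as lower without fresh MHC-IIhi 2 or no-lactate MHC-IIhi 5. The remaining mitosis genes that rose were Ccna2 (0.68 in MHC-IIlo and 0.99 in MHC-IIhi), Ube2c (0.73 and 0.77) and Birc5, survivin (0.53 and 0.68). Cdk1, the mitotic kinase, rose by 0.71 and Kif11, the kinesin that parts the spindle poles, by 0.71 in MHC-IIhi. In MHC-IIlo, the call of Birc5 ended without any 1 of fresh MHC-IIlo 1, 4 and 5 and no-lactate MHC-IIlo 1, 4 and 5, that of Ccna2 and of Mcm6 without any 1 of fresh MHC-IIlo 1, 4 and 5 and no-lactate MHC-IIlo 4 and 5, and that of Ube2c without fresh MHC-IIlo 4 or no-lactate MHC-IIlo 4. In MHC-IIhi the call of Kif11 ended without fresh MHC-IIhi 4 or no-lactate MHC-IIhi 5 and that of Ube2c without no-lactate MHC-IIhi 5. The call of Birc5 in MHC-IIlo also ended in a fit to all 30 libraries, and that of Kif11 in the unfiltered FPKM fit and with a block on the library number. Leaving out the 3 cultured libraries together ended the calls of Birc5, Ccna2, Mcm6 and Top2a in MHC-IIlo. In MHC-IIhi it ended those of Cdc20, Kif11, Mki67, Tk1 and Ube2c. No overlap between groups was found for 5 of 20 mitosis genes in MHC-IIhi (Ccnb1, Cenpe, Cenpf, Aurka and Bub1) and 0 of 20 in MHC-IIlo, both below the 43.4% and 44.5% of all genes. No mitosis gene passed in the test of whether the culture difference itself differed between subsets, in which 14.3% of all genes passed (6.03% positive and 8.27% negative), and of replication genes only Tyms did. With voom quality weights Bub1b passed in that test too. The difference of the 2 log2 fold changes, MHC-IIlo minus MHC-IIhi, was -0.13 for Pcna, -0.14 for Mcm5, 0.083 for Ccnb1, -0.18 for Mki67 and -0.40 for Top2a (adjusted p = 0.494, 0.799, 0.931, 0.788 and 0.536 in that order). It was negative in 18 of 18 replication genes, with a median of -0.29, and in 14 of 20 mitosis genes, with a median of -0.19, against -0.021 for all genes tested. As members vary together between libraries, these signs are not separate observations.

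Cdkn1a, the gene of the inhibitor p21 (ENSMUSG00000023067, chromosome 17, 29090979 to 29100722), passed in all 3 subset comparisons as lower in MHC-IIlo and in both culture comparisons as lower in cultured cells. Its levels were 149, 169, 192, 507 and 161 CPM in lactate MHC-IIlo, 336, 371, 529, 487 and 714 CPM in lactate MHC-IIhi, 138, 129.9, 113, 131 and 98.2 CPM in no-lactate MHC-IIlo, 577, 532, 318, 327 and 735 CPM in no-lactate MHC-IIhi, 523, 569, 519, 661 and 609 CPM in fresh MHC-IIlo and 853, 944, 886, 1146 and 1183 CPM in fresh MHC-IIhi. Among fresh and among no-lactate libraries the subsets did not overlap, and with lactate only library 5 of MHC-IIlo reached the MHC-IIhi range. The log2 fold change of MHC-IIlo over MHC-IIhi was -0.79 ± 0.14 in fresh cells (adjusted p = 0.000922), -1.99 ± 0.27 without lactate (adjusted p = 1.55e-05) and -1.15 ± 0.26 with lactate (adjusted p = 0.0035). Cultured over fresh, it was -2.19 ± 0.21 (adjusted p = 9.48e-09) in MHC-IIlo and -0.99 ± 0.20 (adjusted p = 0.000188) in MHC-IIhi, and the difference between these, -1.20 ± 0.28 (adjusted p = 0.00574), also passed. The window at the upstream of its 2 RefSeq starts, chr17:29090729-29091028 on the plus strand, holds a repeat of ACATGT on either side of 4 bases, shown in capitals because p53 binds motifs of this kind upstream of the gene. The repeat was chosen after the sequence was seen, and 4 of 27025 genes (0.0148%) hold it in a window.
Cdkn1a: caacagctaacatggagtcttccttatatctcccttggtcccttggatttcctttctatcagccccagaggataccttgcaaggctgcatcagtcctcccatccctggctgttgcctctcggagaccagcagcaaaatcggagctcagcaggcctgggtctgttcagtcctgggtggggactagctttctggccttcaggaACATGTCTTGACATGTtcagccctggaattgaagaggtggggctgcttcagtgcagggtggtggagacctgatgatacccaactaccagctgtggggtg

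**Figure D4:**
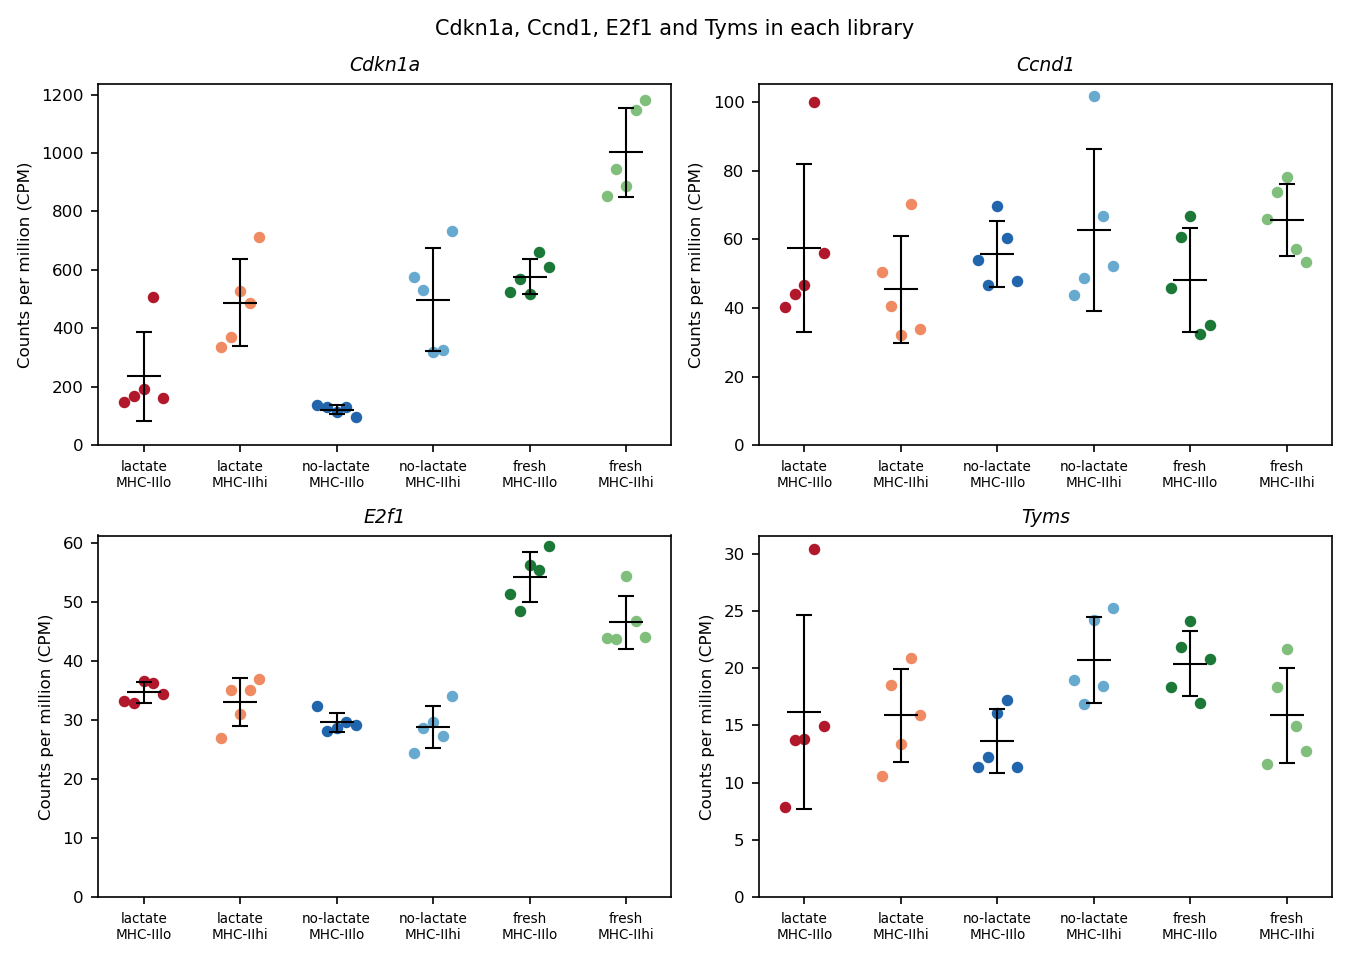
CPM of Cdkn1a, Ccnd1, E2f1 and Tyms in each library (points), with mean and SD (bars) for the 6 groups. Cdkn1a is lower in MHC-IIlo than in MHC-IIhi in fresh and no-lactate cells with no overlap, and E2f1 is lower in cultured than in fresh cells.

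Ccnd1, cyclin D1, which couples growth signals to cell cycle entry, did not pass with culture. It had 55.7 ± 9.57 CPM in no-lactate and 48.2 ± 15.3 CPM in fresh MHC-IIlo, and 62.7 ± 23.5 CPM in no-lactate and 65.7 ± 10.6 CPM in fresh MHC-IIhi. The log2 fold change was 0.28 (95% interval -0.071 to 0.63, adjusted p = 0.188) and -0.035 (-0.39 to 0.32, adjusted p = 0.875), with a difference between subsets of 0.32 (adjusted p = 0.461). Stmn1, a protein that takes microtubules apart, was at 3.47, 2.98, 4.51, 3.24 and 2.31 CPM in no-lactate MHC-IIlo and 3.64, 4.78, 13.4, 4.04 and 7.41 CPM in fresh MHC-IIlo. It fell by 0.94 ± 0.32 (adjusted p = 0.0149), the groups overlapped, and the call ended without fresh MHC-IIlo 3. Hmgb2, a chromatin protein of dividing cells, had 0.32 in MHC-IIlo and 0.20 in MHC-IIhi and did not pass. With voom quality weights both Ccnd1 and Hmgb2 passed as higher in cultured MHC-IIlo. Ccnd1 lies opposite Oraov1, which averaged 23.3 CPM against 55.8 CPM for Ccnd1.

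Other genes of the same pathways were read as lists. Of 28 other replication genes, 16 were higher and 0 lower in cultured MHC-IIlo (median log2 fold change 0.41) and 20 were higher and 1 lower in cultured MHC-IIhi (0.60). Orc1, of the origin recognition complex, rose by 1.77 ± 0.32 (adjusted p = 6.40e-05) in MHC-IIlo, and Mcm10, which starts the helicase, by 1.27 ± 0.24 (adjusted p = 0.00011) in MHC-IIlo and 1.77 ± 0.24 (adjusted p = 1.72e-06) in MHC-IIhi. Of 36 other mitosis genes, 12 were higher and 0 lower in MHC-IIlo (0.38), and 23 were higher and 0 lower in MHC-IIhi (0.76). Ccnf, cyclin F, rose by 1.53 ± 0.23 and 1.25 ± 0.23, and Kif4, a chromosome kinesin, by 0.97 ± 0.24 and 1.54 ± 0.24, in the same subsets. These shares stand against 27.6% of all genes higher in MHC-IIlo and 31.6% in MHC-IIhi.

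Regulators upstream of the 2 roles did not move one way. Of 16 E2F, pocket protein and MuvB regulators, 5 rose and 6 fell in cultured MHC-IIlo, while 8 rose and 5 fell in cultured MHC-IIhi. Of all genes, 29.9% fell in cultured MHC-IIlo and 30.4% in cultured MHC-IIhi. Tfdp2, a partner of E2F proteins, fell by 1.48 ± 0.18 (adjusted p = 5.39e-07) in MHC-IIlo and fell by 1.41 ± 0.19 (adjusted p = 1.10e-06) in MHC-IIhi, Rb1, the retinoblastoma protein gene, fell by 0.93 ± 0.13 in MHC-IIlo, and E2f2 fell by 2.09 ± 0.19 in MHC-IIhi. Of a list of 7 G1 genes, mostly cyclins and kinases but also Myc, a transcription factor gene, 0 rose and 2 fell in MHC-IIlo. In MHC-IIhi 2 of them rose and 1 fell. Ccnd3, cyclin D3, had log2 fold changes of -0.92 ± 0.13 in MHC-IIlo and -1.48 ± 0.13 in MHC-IIhi, both past the threshold, and Myc rose by 0.91 ± 0.17 in MHC-IIhi. Of 5 CDK inhibitors, 3 were lower in MHC-IIlo and 1 in MHC-IIhi. Cdkn2b, which encodes p15, fell by 3.55 ± 0.47 (adjusted p = 1.28e-06) in MHC-IIlo, with 0.361 ± 0.347 CPM in no-lactate and 4.28 ± 1.37 CPM in fresh libraries, and Cdkn1b, which encodes p27, fell by 0.55 ± 0.11 in MHC-IIlo and fell by 0.34 ± 0.10 in MHC-IIhi. Of the p53 targets, 5 rose and 8 fell in MHC-IIlo, while 5 rose and 7 fell in MHC-IIhi. Btg2, an antiproliferative gene, fell by 4.86 ± 0.19 and fell by 4.41 ± 0.19, while Mdm2, the ubiquitin ligase of p53, rose by 1.80 ± 0.14 in MHC-IIhi.

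Between the subsets, MHC-IIlo against MHC-IIhi, no replication gene and no mitosis gene passed edgeR's test with no block in fresh, no-lactate or lactate cells, and other settings called some of them. Over all genes, 29.2% passed in fresh cells (14% higher and 15.2% lower), 20.8% without lactate (9.2% and 11.6%) and 22.4% with lactate (9.13% and 13.3%). At an unadjusted p under 0.05 there were 3 replication genes and 0 mitosis genes in fresh cells, 3 and 0 without lactate, and 0 and 0 with lactate, against 38.7%, 32.6% and 34.4% of all genes. DESeq2 called 1 replication gene in fresh cells (Tyms, adjusted p = 0.0409) and 3 without lactate (Tyms, Cdc6 and Cdt1, adjusted p = 0.0281 to 0.0466), and no mitosis gene in any of the 3 settings. With voom quality weights Tyms and E2f1 were higher in fresh MHC-IIlo, and without lactate Tyms and Cdc6 were lower and the mitosis genes Ccnb2 and Cdc20 higher. The FPKM fits called E2f1 and Gins2 as higher in fresh MHC-IIlo and Tyms as lower without lactate, and edgeR also called Tyms there with RLE size factors and in a fit to all 30 libraries. With a block on the library number, edgeR called Tyms, Gins2, E2f1, Cdk1, Cenpe and Tpx2 as higher and Bub1b as lower in fresh MHC-IIlo. The block also called Tyms as lower without lactate, and 39.1% and 23.6% of all genes passed in these 2 comparisons. A random block called Tyms, Gins2 and E2f1 in fresh cells and Tyms without lactate. Single libraries moved calls as well. Without fresh MHC-IIhi 3, edgeR called Tyms, Gins2 and E2f1 as higher in fresh MHC-IIlo, without fresh MHC-IIlo 2 E2f1, and without fresh MHC-IIlo 3 Bub1b as lower. Without no-lactate MHC-IIhi 5, Ccnb2 and Cdc20 passed as higher in no-lactate MHC-IIlo, Tyms passed as lower without no-lactate MHC-IIhi 4 or no-lactate MHC-IIlo 5, and Cdc6 without no-lactate MHC-IIhi 3. With lactate, Ccne1 passed as higher in MHC-IIlo without lactate MHC-IIlo 1. The median log2 fold change of replication genes was 0.055 in fresh cells, -0.24 without lactate and 0.031 with lactate, and that of mitosis genes 0.13, -0.022 and 0.13, against -0.002, -0.0065 and 0.021 for all genes tested. Without lactate 16 of 18 replication genes were negative, and in fresh cells 13 of 18 were positive. Of all genes, 6913 of 13593 were negative without lactate and 6369 of 12787 positive in fresh cells. As members vary together between libraries, these signs are not separate observations. The nearest to the threshold were Tyms, at 0.37 in fresh cells (adjusted p = 0.0773) and -0.57 without lactate (adjusted p = 0.0505), E2f1 at 0.23 (adjusted p = 0.0787) and Gins2 at 0.40 (adjusted p = 0.0913) in fresh cells, and Cdc6 at -0.57 (adjusted p = 0.0656) without lactate.

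The subset values of the genes reported throughout bound how far the subsets could lie apart. Mki67 was at 56.4 ± 23.1 CPM in fresh MHC-IIlo and 48.2 ± 15.7 CPM in fresh MHC-IIhi, with a log2 fold change of 0.23 (95% interval -0.24 to 0.70, not adjusted for the number of genes, as for all intervals here). Without lactate it had 0.053 (-0.47 to 0.58) and with lactate -0.21 (-0.74 to 0.32). For Top2a the values were 0.076 (-0.50 to 0.65) in fresh cells, -0.32 (-0.83 to 0.20) without lactate and 0.14 (-0.37 to 0.66) with lactate. Pcna was bounded more tightly, with 0.041 (-0.13 to 0.21) in fresh cells, -0.079 (-0.24 to 0.079) without lactate and 0.011 (-0.15 to 0.17) with lactate. Mcm5 had -0.11 (-0.56 to 0.35), -0.25 (-0.64 to 0.14) and -0.053 (-0.44 to 0.34) in the same order, and Ccnb1 0.21 (-0.50 to 0.93), 0.30 (-0.20 to 0.79) and 0.50 (-0.0048 to 1.00).

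Besides Cdkn1a, only Ccnd1 passed in a subset comparison. It was at 45.7, 60.8, 66.8, 32.3 and 35.1 CPM in fresh MHC-IIlo and 65.9, 73.8, 78.2, 57.1 and 53.3 CPM in fresh MHC-IIhi, ranges that overlapped, with a log2 fold change of -0.45 ± 0.16 (adjusted p = 0.0456). The call ended when any 1 of fresh MHC-IIlo 1, 4 and 5 or any 1 of the 5 fresh MHC-IIhi libraries was left out, in a fit to all 30 libraries (adjusted p = 0.123) and in the FPKM fits (adjusted p = 0.0703 to 0.0895 for Ccnd1 log2 fold change, fresh MHC-IIlo against fresh MHC-IIhi). In cultured cells Ccnd1 had -0.13 without lactate and 0.26 with lactate, and did not pass (adjusted p = 0.738 and 0.436). Of the p53 targets, 2 were higher and 10 lower of 19 in fresh cells, 1 higher and 8 lower of 20 without lactate, and 1 higher and 3 lower with lactate, where 15.2%, 11.6% and 13.3% of all genes were lower in the same order. Btg2 had log2 fold changes of -1.28 ± 0.12, -1.72 ± 0.23 and -1.78 ± 0.23 in these settings, all past the threshold. Ccnd2, cyclin D2, also passed in all 3, with -1.61 ± 0.18 in fresh cells, -1.67 ± 0.18 without lactate and -1.23 ± 0.18 with lactate. Cdkn2b was higher in MHC-IIlo in fresh cells (1.71 ± 0.32) and lower without lactate (-2.25 ± 0.55) and with lactate (-1.63 ± 0.56), and its culture difference differed between subsets by -3.97 ± 0.63 (adjusted p = 0.0002). Of the other replication and mitosis lists, 0 to 3 genes passed in each setting.

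**Figure D5:**
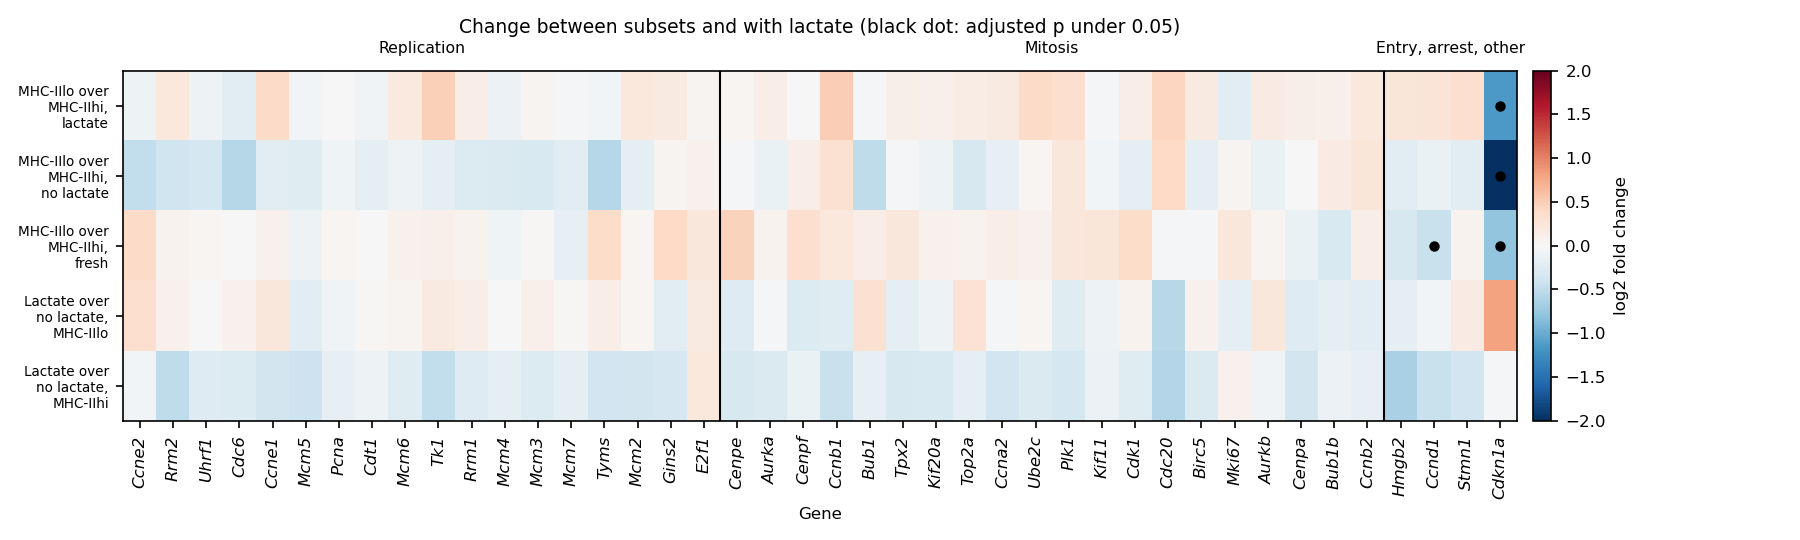
Log2 fold change (colour) of each of the 42 genes (x axis) between the subsets in 3 settings and with lactate in each subset (y axis); a black dot marks an adjusted p under 0.05. Only Cdkn1a in the 3 subset comparisons and Ccnd1 in fresh cells carry a dot.

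With lactate set against no lactate, none of the 42 genes passed in either subset. Few genes passed at all, 1.49% of those tested in MHC-IIlo and 0.25% in MHC-IIhi. At an unadjusted p under 0.05, edgeR gave 2 of the 42 genes in MHC-IIlo (4.76%) and 5 in MHC-IIhi (11.9%), against 17.5% and 9.87% of all genes. DESeq2 gave 1 gene past an adjusted 0.05 in MHC-IIlo, Cdkn1a, and 0 in MHC-IIhi, and with voom quality weights Cdc20 passed as lower in MHC-IIlo. In MHC-IIhi the log2 fold change was negative in 17 of 18 replication genes, with a median of -0.26, and in 19 of 20 mitosis genes, with a median of -0.29, against -0.0055 for all genes tested. In MHC-IIlo it was positive in 13 of 18 replication genes (median 0.069) and negative in 14 of 20 mitosis genes (-0.14), against 0.013 for all genes. Of all 13593 genes, 6943 were negative in MHC-IIhi, and 7058 were positive and 6528 negative in MHC-IIlo. Library 1 of lactate MHC-IIhi was lowest for 35 of the 42 genes and library 5 of no-lactate MHC-IIhi highest for 34. The signs of the members are thus not separate observations. The lactate and culture comparisons share the no-lactate libraries. The lactate difference did not itself differ between subsets for any member, nor for any gene tested (0%), with 2 of the 42 genes (4.76%) at an unadjusted p under 0.05, against 7.49% of all genes.

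Mki67 was at 49.8, 41.6, 59.6, 121 and 73.7 CPM with lactate and 54.9, 48.2, 118, 84.9 and 62 CPM without it in MHC-IIlo (log2 fold change -0.18, 95% interval -0.71 to 0.34, adjusted p = 0.765). In MHC-IIhi it was at 36.8, 82.2, 53.1, 114 and 98.4 CPM with lactate and 43.5, 60.2, 109, 74.1 and 75.1 CPM without it (0.08, -0.45 to 0.60, adjusted p = 0.95). The ranges overlapped in both subsets. Top2a had 0.29 (-0.23 to 0.80) in MHC-IIlo and -0.17 (-0.69 to 0.34) in MHC-IIhi, and Ccnb1 -0.24 (-0.74 to 0.25) and -0.44 (-0.94 to 0.064). Among replication genes, Pcna had -0.075 (-0.23 to 0.083) in MHC-IIlo and -0.16 (-0.32 to -0.0066) in MHC-IIhi, and Mcm5 -0.22 (-0.61 to 0.17) and -0.41 (-0.81 to -0.024). Ccnd1 had -0.057 (-0.49 to 0.37) and -0.45 (-0.88 to -0.016). Because these intervals use a normal quantile, one that ends close to no change need not go with an unadjusted p under 0.05.

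In MHC-IIlo the lactate and no-lactate groups did not overlap for 2 of the 42 genes, E2f1 and Cdkn1a, against 6.17% of all genes, and in MHC-IIhi for none, against 1.93%. E2f1 was at 33.2, 32.8, 36.6, 36.3 and 34.4 CPM with lactate and 32.4, 28.1, 28.6, 29.6 and 29.1 CPM without it in MHC-IIlo, a log2 fold change of 0.18 ± 0.09 (adjusted p = 0.32). Cdkn1a had 236 ± 152 CPM with lactate and 122 ± 16.2 CPM without it in MHC-IIlo, a log2 fold change of 0.81 ± 0.26 (95% interval 0.29 to 1.33, adjusted p = 0.11). Library 5 held the highest value by far, and without it the log2 fold change of Cdkn1a was 0.50 (adjusted p = 0.292). DESeq2 gave Cdkn1a an adjusted p of 0.0452, and limma voom with quality weights 0.0416. In MHC-IIhi it had -0.028 (-0.54 to 0.48, adjusted p = 0.985). Of 20 p53 targets, 2 were higher with lactate in MHC-IIlo and 0 lower, Plk3 at 0.73 ± 0.15 (adjusted p = 0.0192) and Ddit4 at 1.66 ± 0.36 (adjusted p = 0.0239), and no gene of the other pathway lists passed in either subset.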

How the data were processed

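Gene expression was measured by bulk RNA sequencing in 30 libraries, with 5 in every group of the 6. Trimmomatic, STAR with GRCm38 and featureCounts are named in the submitters' processing notes; versions and the strand setting are not given in the sources used here. The authors deposited raw read counts of 46603 genes, with gene lengths in bases and GC percent per the file headers, and a table of FPKM for 13778 genes, whose scaling and filter are not given. The numbers in the headers of cultured columns are other than those in the labels, so a cultured column could be matched to its group alone. Library numbers here are those of the headers.

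Counts were tested with edgeR 4.0.16 in R 4.3.3. Genes kept by filterByExpr (12787 in the fresh fit, 13593 in the cultured fit and 13682 in the culture fit) were scaled with TMM, fitted by group with no block, and tested with the 2-sided quasi-likelihood F test with Benjamini-Hochberg adjustment over all genes tested. Fresh subsets were fitted on fresh libraries, subset and lactate comparisons on cultured libraries, and culture comparisons on fresh and no-lactate libraries. CPM are scaled by the total with no TMM factor, which differs from the scaling of the tests. Totals of 16913250 to 31481548 counts set the counting error, which the spread between libraries exceeded: between libraries of 1 group, chi-square per degree of freedom over genes was 9.05 to 238, and no pair was within sampling noise.

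The members, the roles, the pathway and marker lists and the tests were chosen with earlier results of these data known. All 42 members may be named. Mki67, Top2a, Pcna, Mcm5, Ccnb1, Cdkn1a and Ccnd1 are given in every comparison, the 3 smallest adjusted p per role among genes that passed are given with fold change and SE, and up to 2 genes with the smallest adjusted p are named per pathway list. Lists are described by counts and medians, with no list test. Alternatives were RLE size factors, no count filter, DESeq2 1.42.0, voom of limma 3.58.1 with quality weights, a single fit to all 30 libraries, limma on FPKM (pseudocount 1 or 0.1 before log2, keeping genes that reached FPKM 1 in 5 libraries, or keeping all), a block on the number, and each library left out. A random block and leaving out 3 libraries together were added after the data were seen. The procedure was tested on simulated data. Positions of promoter windows are of RefSeq on GRCm38.p6.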

Additional observations from a re-analysis of the deposited data

Results flagged for a closer look

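Single libraries stood apart from the other 4 of their group in 13 of the 264 groups of values examined (the 42 genes and their 2 sums in 6 groups), where chance gives about 1 in 20. The count of flags is thus near that rate. As many members were highest in the same library, the flags are not separate observations. Of these, 9 were in library 5 of lactate MHC-IIlo, each as the highest value. Mcm2, a helicase subunit, was at 96.7 CPM there and at 37.9 to 52.7 CPM in the other 4 libraries, Ccne2 at 21.4 CPM against 5.81 to 10.1 CPM, and Cdt1 at 95.9 CPM against 54.1 to 65.0 CPM. Of mitosis genes, Ccnb1 was at 29.7 CPM against 10.4 to 15.4 CPM, Ccnb2 at 14.7 CPM against 6.45 to 8.73 CPM, Cdc20 at 36.6 CPM against 18.7 to 23.1 CPM, and Aurka at 46.5 CPM against 20.7 to 27.4 CPM. Ccnd1 was at 100.04 CPM against 40.2 to 56.1 CPM and Cdkn1a at 507 CPM against 149 to 192 CPM, so both entry and arrest genes were high in this library. The TMM factor of this library, 1.28, was the highest of the 30, so that its levels on the scale of the tests are lower than its CPM. In the other 4 libraries of its group the factor was 0.919 to 1.01. All flags rest on CPM and were not sought again on the scale of the tests, where some may not hold. It also had the lowest summed macrophage markers of its group, 6173 CPM. In no-lactate MHC-IIhi, library 5 had Ccnb2 at 18.7 CPM against 5.63 to 7.58 CPM in the other 4. In fresh MHC-IIhi, library 3 had Cenpa at 34.5 CPM against 24.5 to 26.9 CPM, Bub1b at 36.7 CPM against 26.5 to 28.3 CPM, and Stmn1 at 12.2 CPM against 4.58 to 5.25 CPM.

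The difference between cultured and fresh cells differed between the subsets for 2 of the 42 genes, by the edgeR test of the difference itself, where 14.3% of all genes passed. For Tyms the log2 fold change in MHC-IIlo minus that in MHC-IIhi was -0.95 and for Cdkn1a it was -1.20. Tyms had opposite signs in the subsets, whereas Cdkn1a was lower in cultured cells of both.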

How the results depend on the processing

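Counts of the 42 genes past the threshold kept within 1.5 times of those reported under every alternative run in the culture comparisons (27 to 33 against 32 in MHC-IIhi, 22 to 35 against 26 in MHC-IIlo, 2 to 3 against 2 for the difference between subsets), in lactate MHC-IIlo against lactate MHC-IIhi (1), for lactate in MHC-IIhi (0) and for the lactate difference between subsets (0). The counts that moved were small. In fresh MHC-IIlo against fresh MHC-IIhi 2 genes became 4 with voom quality weights and 1 with all 30 libraries in the fit. In no-lactate MHC-IIlo against no-lactate MHC-IIhi 1 gene became 2 with RLE size factors, with all 30 libraries and with each of the 3 FPKM fits, 4 with DESeq2, 5 with voom quality weights and 3 without the highest library of 3 cultured groups. For lactate in MHC-IIlo 0 genes became 1 with DESeq2 and 2 with voom quality weights. With 1 library left out at a time the counts ran from 1 to 4 in fresh, 1 to 3 in no-lactate and 1 to 2 in lactate subset comparisons, 0 to 0 for lactate, 28 to 34 and 21 to 32 for culture in MHC-IIhi and MHC-IIlo, and 2 to 2 for the difference of the culture effects. The 111 gene values followed through every setting (genes that passed, and the 7 given in every comparison) kept their side of the threshold in 2368 refits, lost it in 97 and gained it in 5, and none changed sign as a called value. Over all 42 genes and every comparison, calls absent from the reported fit were gained 81 times, in 22 genes, 27 of them with 1 library left out. The labels do not say whether libraries with the same number are paired, and the reported tests use no pairing. As deviations from the mean of their group, such libraries correlated at 0.07 to 0.50 between the fresh subsets. There the correlation was over 0.1 in 4 of 5 pairs, and the same number was the best partner in 4 of 5. Library 3 was the highest and library 4 the lowest for both sums in both fresh subsets. Between cultured groups the correlations were -0.32 to 0.48 (over 0.1 in 19 of 27). With the replicate block, 9 genes passed in the fresh subsets (39.1% of all genes), Tyms, Gins2, E2f1, Cdk1, Cenpe and Tpx2 as higher and Bub1b, Ccnd1 and Cdkn1a as lower in MHC-IIlo, and 2 in the no-lactate subsets. The random replicate block gave 5 and 2. The cause of these differences was not tested. At 16913250 to 31481548 counts per library all 42 genes were measured in every group, and the coefficient of variation between libraries exceeded that of counting alone in 120 of 120 pairs of a mitosis gene and a group and in 108 of 108 pairs for replication genes.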
